A study of Mus musculus with 7 samples.

Results

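The 42 genes described here encode proteins that burn fatty acids, ketone bodies and branched-chain amino acids in mitochondria and run the citrate cycle that these fuels feed. They were chosen by name for these roles, with no measured value in the rule, from the 56980 genes of a mouse expression table, and all 42 were found in it. The choice was made with earlier results of these data known, so counts of members set against all genes describe them and are not independent support. To follow gene expression after myocardial infarction (MI), the study sequenced RNA from the myocardial tissues of 7 male wild-type C57BL/6J mice, an inbred laboratory strain, with 1 library for each mouse. In 3 mice (MI mice) the left coronary artery was ligated, and the other 4 (sham-operated mice) went through the surgery with no ligation. By the study's methods the mice were 8 weeks old when they were obtained, had 1 week to acclimate, and were sacrificed 4 days post-MI. The study calls the tissue of the MI mice ischemic, but neither the labels nor the methods give the part of the heart that was taken or its share of infarcted tissue, so the values describe tissue in which cell types are mixed.

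The adult heart takes most of its energy from fatty acids. After uptake, a fatty acid is bound to coenzyme A, passed into the mitochondrion on carnitine, and shortened round by round in beta-oxidation, where a dehydrogenase, a hydratase, a second dehydrogenase and a thiolase act in turn. The acetyl-CoA that is released, like that from ketone bodies and from branched-chain amino acids, is oxidized in the citrate cycle, and the electrons go to the respiratory chain. In cardiomyocytes many of these genes are known targets of nuclear receptors of the PPAR and ERR families with their coactivator PGC-1alpha, and an injured or failing heart is known to rely less on fat.

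Stretches of DNA upstream of the members were searched for the motifs of such regulators. The set of RefSeq promoters searched held 45 start sites for 37 of the 42 genes, and did not include Acaa2, Acat1, Cpt1b, Decr1 and Idh3a. In the 250 bases before each start (GRCm38.p6, both strands searched) the nuclear receptor site AGGTCA was found in 8 of 45 members' promoters (17.8%), against 14.0% of all 32851 promoters in the same set, and those 8 belonged to Acadm, Acadvl, Bckdhb, Cpt1a, Echs1, Fh1, Sucla2 and Ucp3. The longer ERR element TCAAGGTCA, which contains that site, and the spaced PPAR element, made of 2 copies of AGGTCA in the same direction with any 1 base between them, were in 0 members' promoters, against 0.387% and 0.0335% of all. The NRF1 site, GCGCA and GCGC with any 1 base between them, bound by a regulator of nuclear genes for mitochondria, was in 3 (6.67%: Etfb, Etfdh and Sucla2) against 3.74% of all, and the E-box CACGTG was in 3 promoters (6.67%), all of them of Ogdh, against 6.02%. A match is a description of letters, and the lack of one says only that these letters are not in this window. Acadm is shown because its values were among the largest decreases, Cpt1a because it was the member that was higher in every MI mouse, and Etfb for its NRF1 match next to the start. The motifs and these 3 promoters were settled after the matches had been seen. Capitals mark the match, which for Acadm (chr3:153944644-153944893, minus strand) and Cpt1a (chr19:3323051-3323300, plus strand) reads TGACCT, the reverse complement of AGGTCA, beginning 249 and 94 bases before the start. For Etfb (chr7:43443822-43444071, plus strand) it begins 11 bases before the start. None of the Acadm and Etfb bases and 16 of the Cpt1a bases lie in an exon of the GENCODE M21 annotation.
Acadm: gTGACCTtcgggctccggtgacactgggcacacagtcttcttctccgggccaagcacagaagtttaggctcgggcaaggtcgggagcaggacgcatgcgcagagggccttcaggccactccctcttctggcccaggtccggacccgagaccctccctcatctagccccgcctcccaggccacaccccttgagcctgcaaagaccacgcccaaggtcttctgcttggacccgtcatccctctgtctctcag
Cpt1a: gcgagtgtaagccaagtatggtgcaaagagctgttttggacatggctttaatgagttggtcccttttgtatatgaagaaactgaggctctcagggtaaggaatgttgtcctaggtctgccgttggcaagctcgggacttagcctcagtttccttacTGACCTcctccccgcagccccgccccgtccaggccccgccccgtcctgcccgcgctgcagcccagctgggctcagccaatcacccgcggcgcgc
Etfb: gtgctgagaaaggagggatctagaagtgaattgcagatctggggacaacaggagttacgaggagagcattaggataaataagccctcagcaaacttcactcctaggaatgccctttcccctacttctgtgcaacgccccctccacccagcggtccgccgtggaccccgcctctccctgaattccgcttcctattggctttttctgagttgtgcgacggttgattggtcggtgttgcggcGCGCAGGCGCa

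The values are FPKM, fragments counted on a gene relative to its length and to the fragments of the library. Depths recovered from the steps of the FPKM values were 19977713 to 23473543 fragments in the sham-operated mice and 21781014 to 23610870 in the MI mice. Each member rested on 356 to 54999 fragments in a mouse. Counting error was not set against the spread between animals, and narrow gaps between groups may lie within it. For Etfa, MI replicate 2 read 232.6 FPKM against a lowest sham value of 233.0 FPKM. One library stood apart from its group. In MI replicate 2 mitochondrially encoded genes held 28.2% of the fragments, against 26.5 to 27.4% in the sham-operated mice and 13.6 and 14.9% in MI replicates 1 and 3, so counts, medians, pair differences and the fold changes of leading members are also given without that mouse. Over the 12 cardiomyocyte markers (Myh6, Tnnt2, Ryr2 and others, of which 0 were listed at 0), the summed FPKM was 15912 to 17116 in the sham-operated mice, 10765 and 11679 in MI replicates 1 and 3, and 15853 in MI replicate 2. Fibroblast markers moved the other way, with summed values of 155 to 183 in the sham-operated mice and 279 to 2649 in the MI mice, all 8 of 8 higher in every MI mouse, and macrophage markers went from 196 to 249 up to 237 to 1319, with 3 of 8 higher in every MI mouse, where 16.1% of all genes tested were. Endothelial markers summed to 126 to 144 against 119 to 170, where Kdr was lower in every MI mouse and the other 5 had log2 fold changes above 0 (median over the 6, 0.29), with Egfl7 higher at an unadjusted limma p. In a mixed tissue, fewer cells of a type and less RNA per cell cannot be told apart, and this holds for every member below.

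Across the 42 genes, levels in MI replicates 1 and 3 were far below the sham level, and those in MI replicate 2 were close to it. Per gene, the share of the sham mean had a median of 45.6% in MI replicate 1 (range 30.8 to 190.2%), 94.7% in MI replicate 2 (73.4 to 135%) and 52.8% in MI replicate 3 (37.7 to 173%). Values were under 50% of the sham mean for 29 genes in MI replicate 1, 14 in MI replicate 3 and 0 in MI replicate 2. Together the 42 genes took 2.63% ± 0.0362 of all fragments in the sham-operated mice (SD, n = 4), and 1.21%, 2.47% and 1.44% in MI replicates 1 to 3. The order of the 3 MI mice was nearly the same from gene to gene: replicate 1 was the lowest and replicate 2 the highest for 38 of 42 genes. The median of the cardiomyocyte markers had the same order, and the share over all genes was not counted, so this order is not read as particular to the members.

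**Figure D1:**
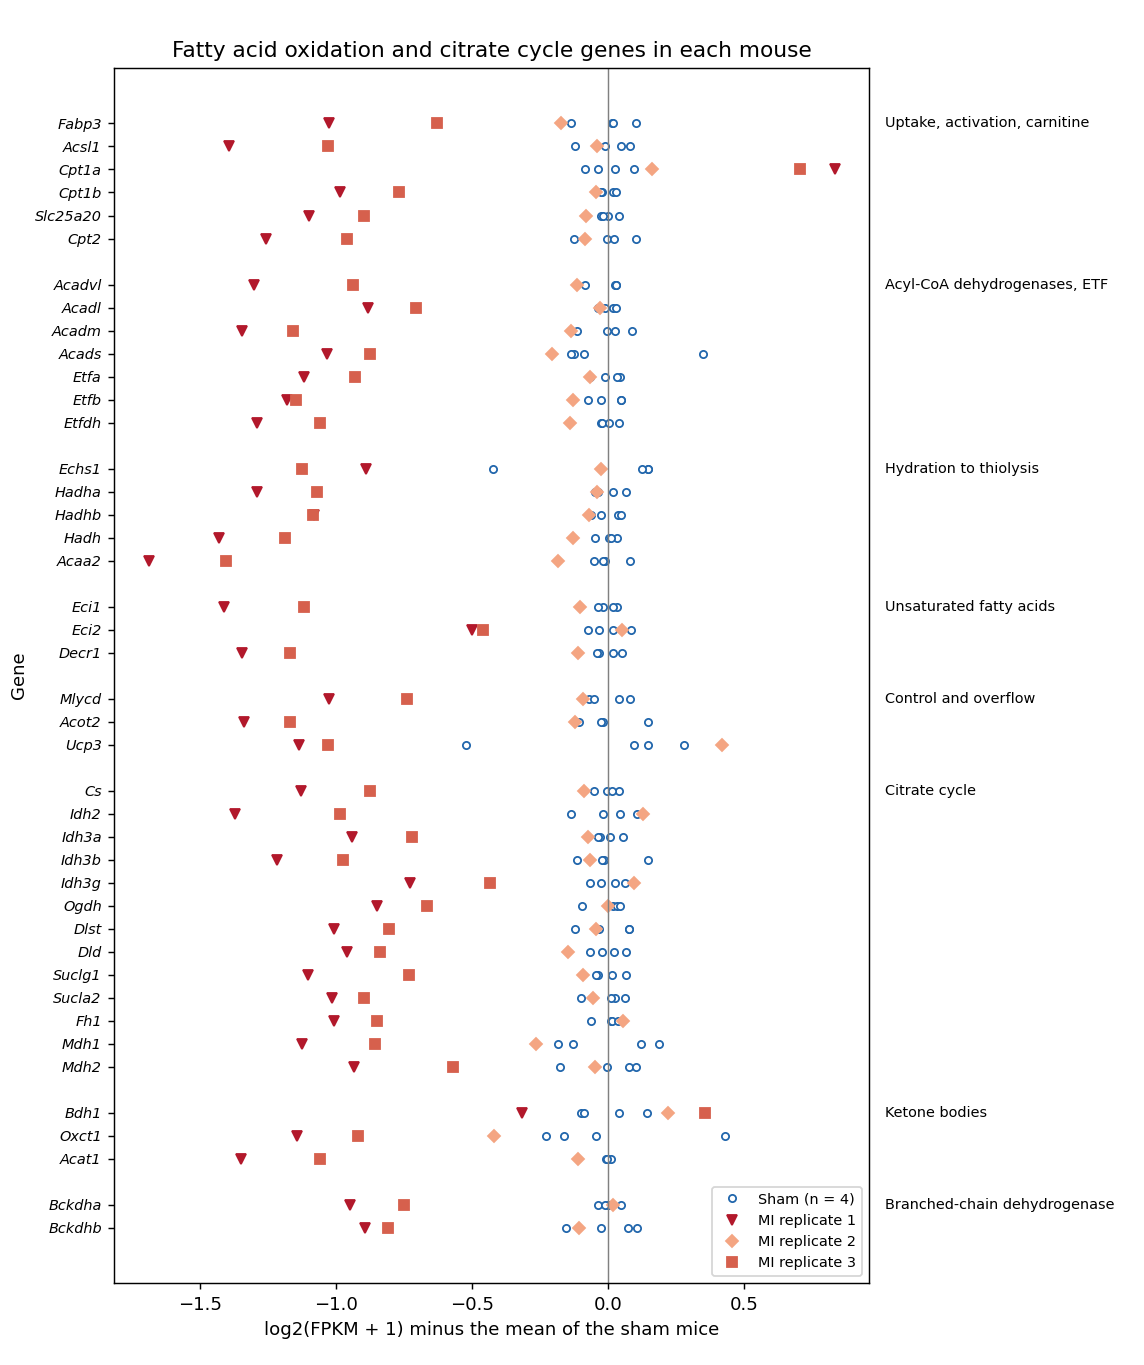
Each row is a gene, grouped by role, and each point a mouse; the x axis is log2(FPKM + 1) minus the mean of the 4 sham-operated mice. MI replicates 1 and 3 lie to the left for nearly all genes, with medians of -1.10 and -0.90, MI replicate 2 lies close to the sham-operated mice with a median of -0.077, and Cpt1a lies to the right in all 3 MI mice.

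Set against the spread between mice, no member passed the adjusted threshold. All 42 genes passed the filter, which asked for 1 FPKM or more in 3 or more of the 7 mice. Of them, 40 had a log2 fold change below 0 on the log2(FPKM + 1) scale, which understates changes of low genes, and the median over the 42 was -0.69 (range -1.09 to 0.57), while the median over all 11431 genes tested was 0.21. By limma's moderated test with Benjamini-Hochberg adjustment over all genes tested, 0 of 42 passed an adjusted p of 0.05, with adjusted values from 0.108 to 0.697, where 0.00875% of all genes passed as lower and 0.0175% as higher. At an unadjusted limma p under 0.05, 36 of 42 were lower and 1 was higher, against 9.85% and 29.5% of all genes tested (19.2% and 19.4% with median log-ratio scaling, where the members' counts were also 36 and 1), and voom on the recovered fragments gave the same 36 and 1 with 0 at the adjusted threshold. Every MI mouse was below every sham-operated mouse for 23 genes and above for 1, against 9.00% and 16.1% of all genes tested. The other 18 overlapped.

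MI replicate 2 was the MI mouse nearest to the sham-operated mice. It lay below the sham range for 23 genes, within it for 13 and above it for 6 (Cpt1a, Ucp3, Idh2, Idh3g, Fh1 and Bdh1). Without that mouse, limma called 40 of 42 genes lower and 1 higher at an adjusted p under 0.05, where 14.7% of all genes tested were lower and 57.0% higher, and the median over the 42 was -1.0. MI replicate 2 was singled out after its values were seen, and leaving out the MI mouse nearest sham narrows the MI spread. These calls are therefore a description and are not read as support. Without MI replicate 1 the counts were 0 at the adjusted threshold and 5 lower at an unadjusted p, where 4.93% of all genes were, and without MI replicate 3 they were 0 and 4, where 4.68% were. Leaving out sham replicate 1 gave 22 lower at an unadjusted p, where 6.32% of all genes were.

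**Figure D2:**
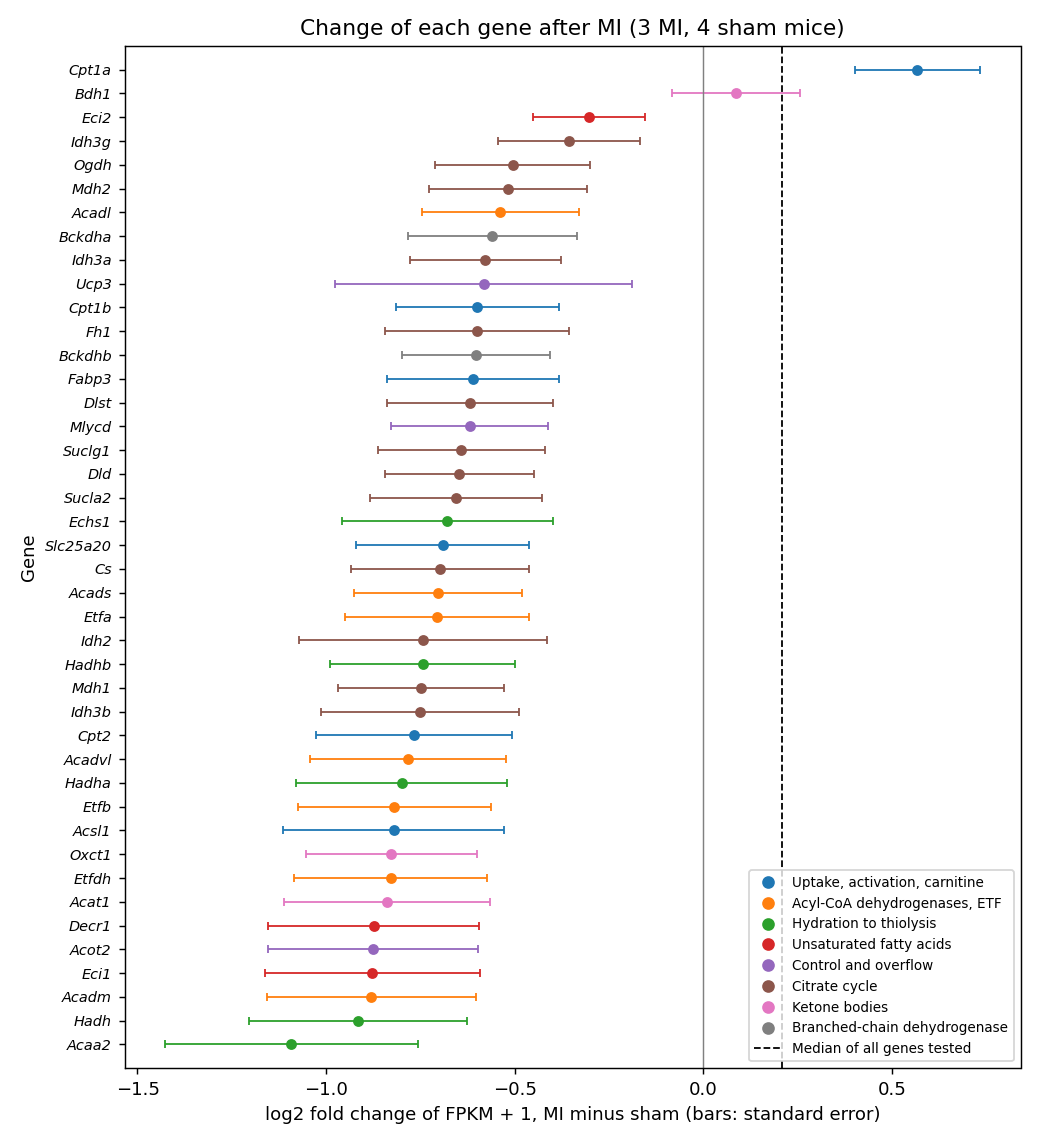
Log2 fold changes of FPKM + 1, MI minus sham (3 and 4 mice), with the standard error from limma as bars and colours for the roles; the dashed line is the median of all genes tested, 0.21. Of the 42 points 40 lie below 0, from -1.09 for Acaa2 upward, and Cpt1a at 0.57 lies beyond the dashed line.

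Uptake, activation and carnitine transfer came first in the pathway and held both the most abundant and the least abundant of the 42 genes. Fabp3, the heart-type fatty acid binding protein that carries fatty acids through the cytosol, had the highest sham level, with 2926, 2934, 2631 and 3105 FPKM in sham replicates 1 to 4 and 1422, 2566 and 1869.8 FPKM in MI replicates 1 to 3. All 3 MI mice were below all 4 sham-operated mice (log2 fold change -0.61, SE 0.23, limma adjusted p = 0.112). Acsl1, which joins long-chain fatty acids to coenzyme A, read 56.3 to 64.9 FPKM in the sham-operated mice and 22.7, 59.5 and 29.5 FPKM in the MI mice, with MI replicate 2 inside the sham range. Slc25a20, the carrier of acylcarnitines across the inner membrane, and Cpt2, which returns the acyl group to coenzyme A inside, had log2 fold changes of -0.69 and -0.77.

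The isoforms of carnitine palmitoyltransferase 1, the step that commits fatty acids to the mitochondrion, moved in opposite directions. Cpt1b (chr15:89416405-89425863, minus strand, coordinates from GENCODE M21 on GRCm38) encodes the isoform of heart and skeletal muscle, and Cpt1a (chr19:3322334-3385733, plus strand) encodes the isoform best known from liver, which is also made in the fetal heart and in many non-muscle cells. Cpt1b read 156, 158, 152 and 152 FPKM in the sham-operated mice and 77.6, 149.6 and 90.1 FPKM in MI replicates 1 to 3. Cpt1a, the lowest of the 42 genes in the sham-operated mice, read 7.04, 6.33, 6.10 and 6.66 FPKM there and 12.4, 7.42 and 11.3 FPKM in the MI mice. Each MI mouse was thus below all sham-operated mice for Cpt1b and above all of them for Cpt1a, MI replicate 2 by the smallest margin in both. The log2 fold changes were -0.60 (SE 0.22, limma adjusted p = 0.110) and 0.57 (SE 0.17, adjusted p = 0.108). Within a mouse, which no scaling of the libraries can alter, the ratio of Cpt1a to Cpt1b FPKM was 0.0450, 0.0402, 0.0401 and 0.0439 in the sham-operated mice and 0.160, 0.0496 and 0.125 in the MI mice. The difference between the isoforms in log2(FPKM + 1) was 1.17 higher in the MI mice (exact permutation test over 35 splits, two-sided, p = 0.0571, the smallest this design can give; 0.171 after adjustment over 9 pairs). Cpt1b remained the major isoform in all 7 mice. Its exons share 2744 bases on the same strand with the read-through gene Gm44502, so counting could have moved fragments between them. The part in this ratio of the fibroblasts and macrophages whose markers were higher in the same mice was not tested.

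The acyl-CoA dehydrogenases, which open each round of beta-oxidation, and the electron transfer flavoprotein that takes up their electrons formed a group of 7. All 7 were lower in the MI mice at an unadjusted limma p, 6 of 7 without overlap and 0 at the adjusted threshold, where 9.85% of all genes tested were lower at an unadjusted p and 9.00% had every MI mouse below, and the median log2 fold change was -0.78. Acadm, the medium-chain dehydrogenase, showed the largest decrease among them, with 149, 161, 171 and 164 FPKM in the sham-operated mice and 62.7, 146 and 71.5 FPKM in MI replicates 1 to 3 (log2 fold change -0.88, SE 0.28, limma adjusted p = 0.108). No MI mouse reached the lowest sham value, although MI replicate 2 came within a few FPKM of it. The smallest was that of Acadl, the long-chain enzyme and the second most abundant of the 42 genes, at 461 to 482 FPKM against 256, 464 and 289.7 FPKM (log2 fold change -0.54), where MI replicate 2 lay inside the sham range. The very long-chain enzyme Acadvl (-0.78) and the short-chain enzyme Acads (-0.70) lay between them. Exons of Acadvl overlap 1151 bases of Dvl2 on the opposite strand, and the strand setting of the counting is not given in the sources used here.

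The flavoprotein subunits Etfa and Etfb join in a dimer. Etfa read 251, 249, 242 and 233 FPKM in the sham-operated mice and 112, 233 and 127 FPKM in the MI mice. Etfb read 141, 148, 148 and 136 FPKM in the sham-operated mice and 62.6, 131 and 64.2 FPKM in the MI mice. Both groups were apart for both genes, if narrowly in MI replicate 2, and the difference between the subunits did not change beyond the spread (0.11 on the log2 scale, exact permutation p = 0.171). Etfdh, which passes the electrons on to ubiquinone, had a log2 fold change of -0.83.

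The hydration, dehydrogenation and thiolysis steps held the 2 largest decreases of the 42. Acaa2, the thiolase that splits off acetyl-CoA from medium-length chains, read 435, 408, 406 and 397 FPKM in the sham-operated mice and 127, 362 and 155 FPKM in MI replicates 1 to 3. All MI mice were below all sham-operated mice, MI replicate 1 at 30.8% of the sham mean. Its log2 fold change of -1.09 (SE 0.33, limma adjusted p = 0.108) ranked 27 among the decreases of all 11431 genes tested. Hadh, the dehydrogenase for short and medium hydroxyacyl chains, came next, with 115, 113, 109 and 114 FPKM in the sham-operated mice and 41.3, 103 and 49.0 FPKM in the MI mice (log2 fold change -0.92, SE 0.29, limma adjusted p = 0.108). Again the groups did not overlap. Echs1, the short-chain hydratase, overlapped through 1 sham-operated mouse: sham replicate 4 read 21.4 FPKM where the other sham-operated mice read 31.8 to 32.3 FPKM, and the MI mice read 15.2, 28.5 and 12.8 FPKM.

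Hadha and Hadhb encode the subunits of the mitochondrial trifunctional protein, which carries out these steps on long chains. The genes start head to head on chromosome 5, at 30155162 on the minus strand and at 30155248 on the plus strand, with 85 bases between the annotated starts. Hadha read 129.8, 131, 136 and 141 FPKM in the sham-operated mice and 54.4, 130.5 and 63.5 FPKM in the MI mice. Hadhb read 24.0, 25.1, 25.3 and 23.4 FPKM in the sham-operated mice and 11.04, 23.2 and 11.02 FPKM in the MI mice. MI replicates 1 and 3 stood at 40.4 and 47.3% of the sham mean for Hadha and at 45.1 and 45.0% for Hadhb, and the difference between them moved by -0.056 in log2(FPKM + 1) (exact permutation p = 0.571). MI replicate 2 was inside the sham range for Hadha and just below it for Hadhb.

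Double bonds in unsaturated fatty acids need auxiliary enzymes, and the enoyl-CoA isomerases among them stood at different fractions of their sham levels. Eci1, the mitochondrial isomerase, read 56.7, 56.1, 54.7 and 54.0 FPKM in the sham-operated mice and 20.2, 51.4 and 25.0 FPKM in the MI mice (log2 fold change -0.88, SE 0.29, limma adjusted p = 0.108). Eci2, which is found in peroxisomes as well as in mitochondria, read 10.8, 11.1, 12.1 and 11.6 FPKM in the sham-operated mice and 7.76, 11.8 and 8.01 FPKM in the MI mice (log2 fold change -0.30, adjusted p = 0.156 by limma, and -0.48 without MI replicate 2). MI replicates 1 and 3 were below all sham-operated mice for both genes, and MI replicate 2 was below them only for Eci1. The FPKM ratio of Eci1 to Eci2 ran from 4.50 to 5.27 in the sham-operated mice and was 2.61, 4.34 and 3.12 in the MI mice. The difference between them in log2(FPKM + 1) moved by -0.57 after MI (exact permutation p = 0.0571, 0.171 over 9 pairs). Decr1, the dienoyl-CoA reductase, had a log2 fold change of -0.87, with the groups apart.

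Of the genes that control the flow or act on its overflow, Acot2 was among the 5 largest decreases. This mitochondrial thioesterase, which frees fatty acids from coenzyme A, read 42.3, 47.6, 42.1 and 39.7 FPKM in the sham-operated mice and 16.4, 39.3 and 18.5 FPKM in the MI mice (log2 fold change -0.88, SE 0.28, limma adjusted p = 0.108). MI replicate 2 missed the sham range by a fraction of 1 FPKM. Acot2 has a near-identical cytosolic copy next to it, Acot1, which read 2.52 to 4.65 FPKM in the sham-operated mice and 0.820, 2.34 and 0.826 FPKM in the MI mice. The split of fragments between the copies is therefore uncertain. Mlycd, which breaks down malonyl-CoA, the inhibitor of carnitine palmitoyltransferase 1, read 17.8 to 19.9 FPKM against 8.71, 17.5 and 10.8 FPKM, with the groups apart. Ucp3, the uncoupling protein of muscle, was the most variable of the 42 genes among the MI mice relative to the sham mean, with 2.73, 9.95 and 3.02 FPKM against 4.72 to 8.94 FPKM, and MI replicate 2 was above every sham-operated mouse.

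Most citrate cycle genes also had lower values in the MI mice. Of the 13 genes, 11 were lower at an unadjusted limma p, 5 without overlap and 0 at the adjusted threshold, against the same 9.85% and 9.00% of all genes, and the median log2 fold change was -0.64, with all 13 below 0. Cs, citrate synthase, which opens the cycle, read 250.1 to 266 FPKM in the sham-operated mice and 118, 243 and 141 FPKM in the MI mice, with a log2 fold change of -0.70. Dld, the dehydrogenase subunit that the oxoglutarate, pyruvate and branched-chain complexes share, had groups apart at -0.65, while Dlst, the core of the oxoglutarate complex, at -0.62, and fumarase, Fh1, at -0.60, overlapped through MI replicate 2.

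Isocitrate dehydrogenase is encoded in mitochondria by Idh2 and by the NAD-dependent complex of Idh3a, Idh3b and Idh3g. Idh3a, the catalytic subunit, read 97.5, 91.9, 94.3 and 91.5 FPKM in the sham-operated mice and 48.4, 89.0 and 56.6 FPKM in the MI mice. Idh3b read 139, 155, 138 and 129.5 FPKM in the sham-operated mice and 59.8, 134 and 70.9 FPKM in the MI mice. Idh3g (chrX:73778963-73786897, minus strand), which has a regulatory role, read 52.7, 56.1, 57.6 and 54.2 FPKM in the sham-operated mice and 32.9, 58.9 and 40.6 FPKM in the MI mice. Groups were apart only for Idh3a, and for Idh3g MI replicate 2 was above all sham-operated mice. Idh3g had 1 of the 5 highest log2 fold changes of the 42 (-0.36, SE 0.19, limma adjusted p = 0.177), and it was -0.17 without MI replicate 1 and -0.58 without MI replicate 2. The ratio of Idh3a to Idh3g ran from 1.64 to 1.85 in the sham-operated mice and was 1.47, 1.51 and 1.39 in the MI mice. All 3 MI mice were below the sham range, and the difference between the fold changes was -0.22 on the log2 scale (exact permutation p = 0.0571, 0.171 over 9 pairs). For Idh3a and Idh3b the difference was 0.17 (exact permutation p = 0.229). Idh2 read 220.2 to 260.2 FPKM in the sham-operated mice and 92.8, 265 and 122 FPKM in the MI mice.

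Ogdh, the oxoglutarate dehydrogenase subunit that sets the rate of its complex, read 262, 283, 287 and 288 FPKM in the sham-operated mice and 155, 279.7 and 176 FPKM in the MI mice (log2 fold change -0.51, SE 0.21, limma adjusted p = 0.119), one of the smaller decreases, with MI replicate 2 in the sham range. Succinyl-CoA ligase pairs Suclg1 with an ATP-forming partner, Sucla2. Suclg1 read 63.8, 59.3, 61.5 and 59.1 FPKM in the sham-operated mice and 27.9, 57.1 and 36.3 FPKM in the MI mice. Sucla2 read 99.5, 96.9, 95.9 and 88.7 FPKM in the sham-operated mice and 46.7, 91.7 and 50.6 FPKM in the MI mice. Their difference moved by 0.014 on the log2 scale (exact permutation p = 0.857), and MI replicate 2 was under the sham range only for Suclg1.

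Malate dehydrogenase has a cytosolic form, Mdh1, and a mitochondrial form, Mdh2, which both serve the malate-aspartate shuttle. Mdh1 read 233, 225, 291 and 278 FPKM in the sham-operated mice and 117, 212 and 140.4 FPKM in the MI mice. Mdh2 read 190.2, 201, 205 and 169 FPKM in the sham-operated mice and 99.4, 184 and 128 FPKM in the MI mice. The groups were apart for Mdh1 and overlapped for Mdh2, but the sham-operated mice themselves spread widely, and the difference between the forms did not change beyond that spread (-0.23, exact permutation p = 0.171).

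**Figure D3:**
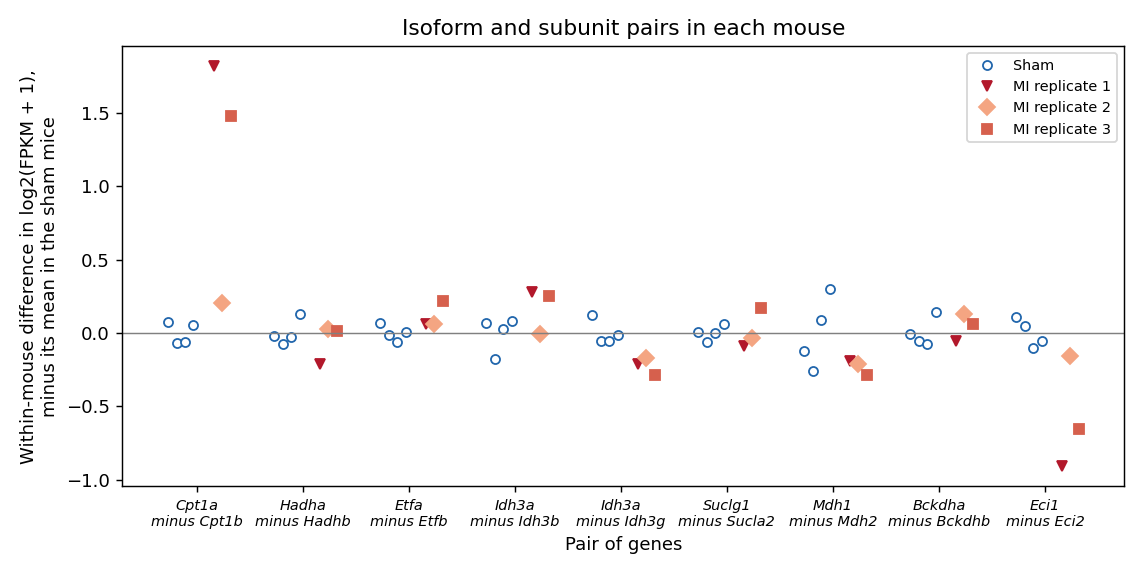
Within-mouse difference in log2(FPKM + 1) between the genes of 9 pairs, minus its mean in the 4 sham-operated mice; each point is a mouse. All 3 MI mice are outside the sham range on 1 side for Cpt1a minus Cpt1b, Idh3a minus Idh3g and Eci1 minus Eci2, and overlap it for the other 6 pairs.

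Of the ketone body genes, Oxct1 and Acat1 were lower in every MI mouse and Bdh1 was not. Oxct1, the transferase that activates acetoacetate and the step that commits ketone bodies to oxidation, read 193 to 305 FPKM in the sham-operated mice and 102, 169 and 119 FPKM in MI replicates 1 to 3. It had the lowest unadjusted p of the 42 (log2 fold change -0.83, SE 0.23, limma adjusted p = 0.108), and it was the gene for which MI replicate 2 lay lowest relative to the sham mean, at 73.4%. Acat1, which splits acetoacetyl-CoA, had a log2 fold change of -0.84 with groups apart. Bdh1, the hydroxybutyrate dehydrogenase ahead of both, read 8.17, 7.54, 6.76 and 6.81 FPKM in the sham-operated mice and 5.66, 8.68 and 9.62 FPKM in the MI mice. MI replicate 1 was below and the other MI mice were above all sham-operated mice, and the log2 fold change was 0.087 (SE 0.17, limma adjusted p = 0.697), a sign that turned under median log-ratio scaling (-0.12), quantile normalization (-0.18), without mitochondrially encoded genes (-0.040) and without MI replicate 3 (-0.048).

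Branched-chain amino acids enter through the branched-chain ketoacid dehydrogenase. Its subunit Bckdha read 139.7, 148, 143 and 142 FPKM in the sham-operated mice and 73.8, 145 and 84.7 FPKM in the MI mice. Bckdhb read 18.4, 20.3, 19.8 and 16.8 FPKM in the sham-operated mice and 9.65, 17.4 and 10.3 FPKM in the MI mice. For both, MI replicate 2 was inside the sham range and the other MI mice were below it, and the difference between the subunits moved by 0.043 (exact permutation p = 0.571). Bckdha shares 1171 exon bases with B3gnt8 on the opposite strand.

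By role, the medians of the log2 fold change ran from -0.87 for the auxiliary enzymes of unsaturated fatty acids, -0.83 for ketone bodies and -0.80 for hydration to thiolysis, through -0.78 for the dehydrogenases, -0.65 for uptake and transfer, -0.64 for the citrate cycle and -0.62 for control and overflow, to -0.58 for the branched-chain dehydrogenase. The groups hold 2 to 13 genes each, and no test was made between them. Without MI replicate 2 the same medians, in the same order of roles, were -1.26, -1.03, -1.18, -1.12, -0.94, -0.92, -1.08 and -0.85, and every gene but Cpt1a and Bdh1 was below all sham-operated mice in both other MI mice, where 16.9% of all genes tested were.

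Without MI replicate 2, single genes had log2 fold changes between 1.25 and 1.86 times those over all 7 mice, with Bdh1 as the exception (0.019). The values became -1.55 for Acaa2, -1.31 for Hadh, -1.26 for Eci1, -1.25 for Acadm and Acot2, -0.88 for Cpt1b, -0.83 for Fabp3, -0.76 for Ogdh and 0.77 for Cpt1a. The 6 that moved by more than 1.5 times were Ucp3 (from -0.58 to -1.08), Idh2 (from -0.74 to -1.18), Fh1 (from -0.60 to -0.93), Bckdha (from -0.56 to -0.85), Eci2 and Idh3g. Leaving out MI replicate 1 moved the genes the other way, to between 0.48 and 0.85 times the values over all 7 mice, again with Bdh1 as the exception (0.29). There 10 genes shrank by more than 1.5 times, Acsl1 (from -0.82 to -0.54), Idh2 (to -0.43), Suclg1 (from -0.64 to -0.41), Fabp3 (to -0.40), Fh1 (to -0.40), Bckdha (to -0.36), Ogdh (to -0.33), Mdh2 (from -0.52 to -0.31), Ucp3 (to -0.31) and Idh3g. Without MI replicate 3 the 1 such gene beside Bdh1 was Ucp3 (-0.36), and leaving out a sham-operated mouse moved none but Bdh1 that far.

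Of the pair differences without MI replicate 2, that of Cpt1a and Cpt1b became 1.65, that of Eci1 and Eci2 -0.78 and that of Idh3a and Idh3g -0.25, each with an exact permutation p of 0.133, the smallest that 2 against 4 mice allow. The difference became 0.26 for Idh3a and Idh3b with the same exact p, and for Hadha and Hadhb, Etfa and Etfb, Suclg1 and Sucla2, Mdh1 and Mdh2, and Bckdha and Bckdhb it became -0.098, 0.14, 0.039, -0.24 and 0.0017, with exact permutation p of 0.267 to 0.933.

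A further 73 genes of the same pathways were listed by role, of which 68 passed the filter and Acsl6, Acaca, Pdk3, Bdh2 and Bcat1 did not. Their median log2 fold change was -0.42, 0 passed limma's adjusted threshold, 37 were lower and 4 higher at an unadjusted p, and every MI mouse was below every sham-operated mouse for 26 and above for 1, Crot. Over all genes tested, 9.85% were lower and 29.5% higher at an unadjusted p, 9.00% had every MI mouse below and 16.1% above. Branched-chain breakdown had the largest share of lower genes among these lists, with 13 of 15 lower and 0 higher at an unadjusted limma p, followed by the rest of the citrate cycle and pyruvate entry, with 12 of 18 and 0. Other mitochondrial oxidation had 6 of 10 lower and 1 higher, uptake and activation 2 of 10 and 2, peroxisomal oxidation 3 of 10 and 1, and ketone synthesis and transport 1 of 5 and 0. The counts of 1 to 3 lower genes in the last 3 lists are not read as apart from the share over all genes.

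The largest decreases among these were Acot1 (log2 fold change -1.0), the phosphatase Ppm1k that activates the branched-chain dehydrogenase (-0.86), carnitine acetyltransferase Crat (-0.78), the branched-chain dehydrogenase core Dbt (-0.73) and the leucine-breakdown carboxylase subunit Mccc2 (-0.72). None of these 5 passed the adjusted threshold, and Ppm1k overlapped through MI replicate 2. Among the 68 genes that passed the filter, the largest increases were in genes with low sham values, except Pdk4. Of those that did not pass, Pdk3, another kinase of pyruvate dehydrogenase, read 0.486 to 0.851 FPKM in the sham-operated mice and 3.60, 0.742 and 2.97 FPKM in MI replicates 1 to 3. Bcat1 and Bdh2 read at most 0.169 and 0.116 FPKM in the sham-operated mice, with 1.40, 0.212 and 0.928 FPKM for Bcat1 and 0.615, 0.0462 and 0.549 FPKM for Bdh2 after MI. Acsl6 went the other way, with 0.562 to 0.969 FPKM in the sham-operated mice and 0.279, 0.557 and 0.298 FPKM in MI replicates 1 to 3. Acsl5 and Acsl4, other long-chain acyl-CoA synthetases, read 3.12 to 3.75 and 2.59 to 2.77 FPKM across the sham-operated mice. After MI, Acsl5 read 10.8, 3.50 and 9.35 FPKM and Acsl4 read 9.86, 2.75 and 5.03 FPKM. They were higher in MI replicates 1 and 3, where Acsl1, the main synthetase of the heart, was lower. Aacs, the cytosolic acetoacetyl-CoA synthetase, read 1.09 to 1.31 FPKM against 4.30, 0.929 and 4.27 FPKM, and the thioesterase Acot9 read 5.49 to 6.52 FPKM against 12.5, 6.48 and 11.7 FPKM. Pdk4, the kinase that shuts off pyruvate entry and a known target of the same nuclear receptors, had another pattern, with 58.4, 68.0, 40.4 and 84.8 FPKM in the sham-operated mice and 61.9, 185 and 87.8 FPKM in MI replicates 1 to 3. Here MI replicate 2 was the highest of the 7 mice, MI replicate 1 was inside the sham range, and the Pdk4 log2 fold change was 0.71 (SE 0.39, limma adjusted p = 0.193), and 0.27 without that mouse.

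Most markers of cardiomyocytes, the cells that hold most of these enzymes in the heart, also had lower values in MI replicates 1 and 3, to unequal extents. Of the 12 markers, 11 had a log2 fold change below 0, 6 were lower at an unadjusted limma p, 0 passed the adjusted threshold and 2 had the groups apart with MI below, against 9.85%, 0.00875% and 9.00% of all genes tested, so that the 2 without overlap are not read as apart from that share. In MI replicates 1 and 3 they ran from 37.4 and 38.8% of the sham mean for Tnni3, through 72.5 to 84.6% for Actc1, Tnnt2 and Actn2, to 98.8 and 116% for Mybpc3, whose log2 fold change was 0.080. The median change from the sham mean over the 12 markers was -0.84, -0.039 and -0.67 in MI replicates 1 to 3, and that over the 42 genes was -1.10, -0.077 and -0.90. The members' median was thus -0.26, -0.037 and -0.22 relative to the cardiomyocyte median, against -0.020 to 0.00096 in the sham-operated mice, and 38, 31 and 35 of the 42 were below that median in MI replicates 1 to 3. No such count was made in the sham-operated mice or over all genes, so these counts are not read as a result about the members. When each library was scaled to the cardiomyocyte list, the median over the 42 genes was -0.23, 7 were lower and 2 higher at an unadjusted limma p, where 0.481% and 53.5% of all genes tested were, and the signs of Eci2 (0.16) and Idh3g (0.11) turned. With the same scaling the median over the other pathway genes was 0.041. The part of cardiomyocyte loss in the lower values cannot be told apart from a change within those cells.

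Markers of fat tissue, which has its own oxidation genes, also differed between the MI mice. Adipoq, the fat hormone adiponectin, read at most 0.144 FPKM in the sham-operated mice and 8.32, 0 and 26.8 FPKM in MI replicates 1 to 3, and Cfd, the fat-derived protease adipsin, read at most 0.586 FPKM against 78.1, 0.175 and 231 FPKM. Cidea, also on the list, did not follow, with 19.6 to 22.9 FPKM in the sham-operated mice and 18.2, 17.3 and 22.9 FPKM after MI. The summed list, 19.9 to 23.1 in the sham-operated mice against 106, 17.4 and 286, was therefore mostly Cidea in the sham-operated mice and MI replicate 2, and mostly Cfd in MI replicates 1 and 3. Ucp1, which defines brown fat, was at most 0.0777 FPKM in any mouse. The list for fast skeletal muscle summed to 0.690 to 1.14 against 0.799 to 3.61, with Myh4 at 0 in all 7 mice. The part of fat in the members' values was not tested.

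**Figure D4:**
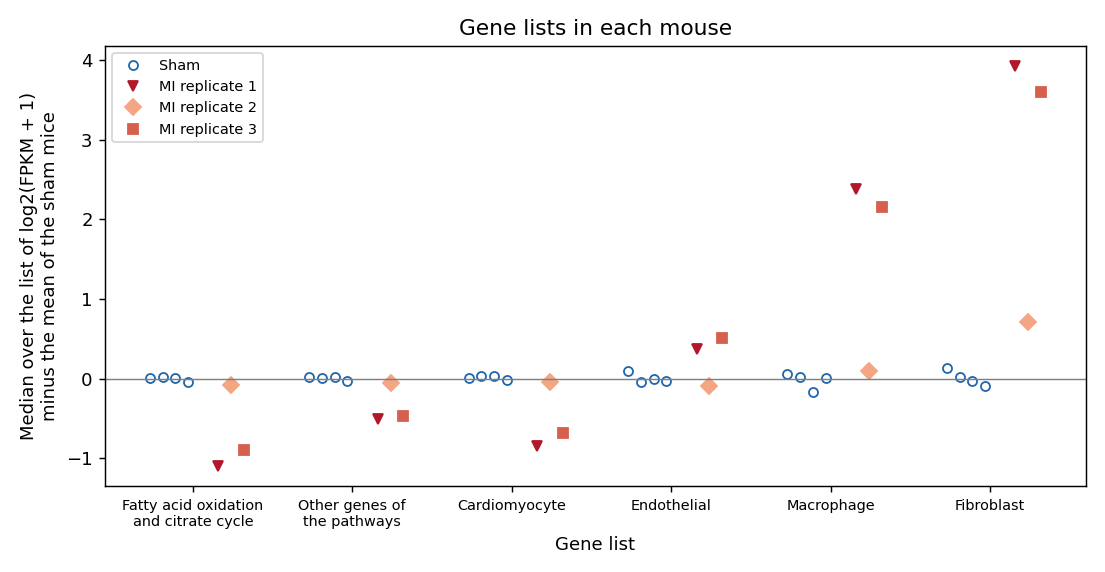
Median over each gene list of log2(FPKM + 1) minus the mean of the 4 sham-operated mice, with 1 point for each mouse. MI replicates 1 and 3 are low for the 42 genes (-1.10 and -0.90) and for the cardiomyocyte markers (-0.84 and -0.67) and high for the macrophage and fibroblast markers, and MI replicate 2 lies near the sham-operated mice except for fibroblast markers.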

How the data were processed

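RNA of 3 MI and 4 sham-operated mice, grouped by the sample labels, was analysed. The authors deposited FPKM values for 56980 genes (0 columns of values were left unused). The submitters' processing notes name CASAVA 1.8, HISAT2, SAMtools 1.3.1 and edgeR and the build mm10, with no role or order, and the counting program, its annotation and its strand setting are not given in the sources used here. Identifiers were matched to GENCODE M21 on GRCm38 (52073, 91.4%). Whole fragments were recovered from the steps of the FPKM values for 30503 of 30504 genes above 0 (tolerance 0.05 of a fragment), and gave the depths.

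Values were analysed as log2(FPKM + 1), without rescaling. A filter of 1 FPKM or more in 3 or more mice left 11431 genes, which were compared in limma 3.58.1 (lmFit, eBayes with trend, no covariates; R 4.3.3), with Benjamini-Hochberg adjustment at 0.05. The p-values measure the spread between these animals. Differences within 9 isoform or subunit pairs were tested by exact two-sided permutation over the 35 splits, with p as the doubled smaller tail (lowest 0.0571) and adjustment over the pairs. The fit was tested on simulated data in which both groups had the spread of the sham-operated mice. That test does not cover the wider spread among the MI mice. Promoters came from RefSeq (GRCm38.p6). Tables and figures were made in Python 3.11.15 with matplotlib 3.10.9, NumPy 2.4.6 and pandas 2.3.3. Alternatives were a pseudocount of 0.1, no filter, TPM, quantile, median log-ratio and cardiomyocyte scaling, leaving out mitochondrially encoded genes, voom, sample weights, a replicate block and each mouse left out.

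The members, the gene lists and the pairs were chosen with earlier results of these data known. Values in every mouse are given for the 5 largest decreases and the 5 highest log2 fold changes of the 42, the genes of the pairs, and the members with the highest and lowest sham level. Of the other pathway genes the 5 with the largest decrease and the 5 with the largest increase are named, and Crot was named after its values were seen. Values are also given for Pdk3, Bcat1, Bdh2 and Acsl6, which did not pass the filter and were not part of that rule.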

Additional observations from a re-analysis of the deposited data

Results flagged for a closer look

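In 3 of the 52 sets of 4 sham-operated mice that were examined (the 42 members and 10 other pathway genes), 1 mouse stood apart from the other 3 on the log2(FPKM + 1) scale by more than Dixon's limit, which chance exceeds in about 1 set in 20, or 2.6 sets here. For Acadvl sham replicate 4 was low, with its gap to the nearest mouse at 0.940 of the range, as it was for Echs1, at 0.963 of the range. For Acads sham replicate 2 was high, at 0.905 of the range. The groups of 3 MI mice are too small for this check.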

How the results depend on the processing

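The median over the 42 genes stayed below 0 under all 17 alternatives (-1.0 to -0.23) and was -0.23 only with cardiomyocyte scaling, which moved the median of all genes to 0.67 (0.21 without scaling, 0.41 with TPM, -0.031 with quantile normalization, -0.0012 with median log-ratio scaling). That scaling gave 7 lower and 2 higher at an unadjusted p (0.481% and 53.5% of all genes) and 3 with every MI mouse above (27.0%), and for the other pathway genes 0 lower, 14 higher, 9 below (1.33%), 9 above and a median of 0.041. Quantile normalization left 15 of the 42 below every sham-operated mouse, as it did 1709 of all 11431 genes against 1029 without it. Sample weights, at 437 for MI replicate 3 against 0.0906 and 0.0217 for the other MI mice, rest on that mouse: 40 lower and 2 higher at the adjusted threshold (2 higher unadjusted), and 49 and 16 (16 unadjusted) of the others, where 20.3% and 66.8% of all genes passed. For the other pathway genes TPM gave 19 lower and 10 higher at an unadjusted p (4.28% and 34.9% of all genes), quantile and median log-ratio scaling each 2 higher (16.7% and 19.4%) and 2 above (12.1% and 13.7%), no filter 2 above (3675 of 30504 genes), and leaving out mitochondrially encoded genes 4 above (17.2%). The replicate numbers did not pair the mice (correlations of deviations 0.074, -0.016 and -0.080), and with a replicate block, to which sham replicate 4 adds nothing, 23 of the 42 and 15 of the others were lower and 2 of the others higher at an unadjusted p (4.92% and 15.5% of all genes), and 0 of the 42 passed the adjusted threshold. With 1 mouse left out, the 42 had 0 to 40 lower and 0 to 1 higher at the adjusted threshold, 4 to 40 lower and 1 to 2 higher at an unadjusted p, 23 to 40 below and 1 to 2 above, with 40 lower (adjusted) only without MI replicate 2. Over all genes the same fits gave 0 to 14.7% lower and 0 to 57.0% higher (adjusted), 4.68 to 15.5% lower and 8.33 to 58.8% higher (unadjusted), 9.94 to 16.9% below and 16.9 to 61.9% above. The others had 0 to 46 lower and 0 to 14 higher (adjusted), 9 to 47 lower and 0 to 14 higher (unadjusted), 26 to 48 below and 1 to 14 above. Signs turned for Eci2 (0.16) and Idh3g (0.11) with cardiomyocyte scaling, for Bdh1 with median log-ratio scaling (-0.12), without mitochondrially encoded genes (-0.040), with quantile normalization (-0.18) and without MI replicate 3 (-0.048 to 0.29 with 1 mouse left out), for Hadha minus Hadhb without MI replicate 1 (-0.098 to 0.021), and for Suclg1 minus Sucla2 without sham replicate 2 and without MI replicate 3 (-0.063 to 0.064). The causes were not tested. Of 884 values of single genes under alternatives, 776 kept their direction and side of the adjusted threshold, 102 passed it and 6 turned. Every member rested on 356 fragments or more in each mouse.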
